A study of Mus musculus with 10 samples.

Results

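The genes described here are Hmgcs1, Mvd, Idi1, Fdps, Sqle, Lss, Dhcr7 and Insig1, which make cholesterol or restrain its production. They were chosen by symbol, and all 8 were among the 24421 genes of the count table. RNA was sequenced from a piece of the pancreas tail of female mice aged 12 weeks, giving 10 libraries, each from another mouse. The mice carried Ptf1aCreER, a tamoxifen-inducible Cre recombinase driven by a gene of the enzyme-secreting acinar cells, and nTnG, a nuclear fluorescent reporter that Cre switches. The groups are defined by Insr, the gene of the insulin receptor. WT mice (3 libraries) had 0 floxed alleles (Insrw/w), Het mice (3 libraries) had 1 (Insrw/f) and KO mice (4 libraries) had 2 (Insrf/f). Cre can cut out the floxed part of an allele, and the design aims removal at cells in which Ptf1a drives Cre. Each library held RNA of every cell type in the piece. In such bulk RNA, fewer cells of a type and less RNA per cell cannot be told apart.

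Cells build cholesterol from acetyl-CoA through mevalonate and the isoprenoids to farnesyl diphosphate, then through squalene and lanosterol to cholesterol. The genes of this route are turned on by the transcription factor SREBP-2, and by its relative SREBP-1, when sterols in the endoplasmic reticulum run low. The escort protein Scap carries SREBP out of the endoplasmic reticulum for cleavage, and Insig1 holds Scap back when sterols are plentiful. Insulin is known to favour SREBP activity in liver. None of the 8 genes takes up cholesterol from outside the cell, and genes of uptake and transport are described below with the rest of the pathway.

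Promoter sequences of 6 of the 8 genes were in the RefSeq table (GRCm38.p6), with 8 start sites among them. Sqle and Fdps had no entry. Those of Hmgcs1, Lss and Insig1 are shown because the levels of Hmgcs1 lay lower in every Het and KO library than in any WT library and because Lss and Insig1 varied together. Capitals mark 3 motifs searched on both strands: TCACNCCAC, a form of the sterol regulatory element that SREBP binds, CCAAT, bound by NF-Y, and GGGCGG, bound by Sp1. Matches of the 3 motifs were counted separately, also where they overlapped. Each sequence is on the plus strand and ends before the first start site of the gene. The Hmgcs1 sequence is chr13:119690101-119690350, that of Lss is chr10:76531355-76531587 and that of Insig1 is chr5:28071162-28071362.
Hmgcs1: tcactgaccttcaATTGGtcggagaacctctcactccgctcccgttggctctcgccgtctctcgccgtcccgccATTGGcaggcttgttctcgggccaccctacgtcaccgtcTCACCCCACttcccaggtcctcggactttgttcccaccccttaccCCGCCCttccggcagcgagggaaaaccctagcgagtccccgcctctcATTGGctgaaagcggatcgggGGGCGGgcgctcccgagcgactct
Lss: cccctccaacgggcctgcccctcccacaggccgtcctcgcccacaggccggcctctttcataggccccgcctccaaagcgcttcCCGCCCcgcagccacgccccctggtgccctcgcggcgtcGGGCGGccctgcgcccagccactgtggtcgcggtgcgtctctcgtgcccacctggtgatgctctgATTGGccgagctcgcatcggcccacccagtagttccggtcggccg
Insig1: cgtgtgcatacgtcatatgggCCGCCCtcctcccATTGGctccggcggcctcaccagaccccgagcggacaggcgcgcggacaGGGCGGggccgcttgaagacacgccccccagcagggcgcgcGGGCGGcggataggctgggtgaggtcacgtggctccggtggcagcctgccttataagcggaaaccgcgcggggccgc
The window of 250 bases before the RefSeq start was searched in all promoters of the table. TCACNCCAC was found in 1 of the 8 promoters of these genes, that of Hmgcs1, as TCACCCCAC beginning 137 bases before the start, and in 1.05% of 32851 promoters. CCAAT was found in 6 of the 8 promoters of these genes and in 33.8% of all promoters. GGGCGG was found in 7 of the 8 and in 32.7% of all promoters. More than 1 of the 8 promoters belongs to Dhcr7. The pathway lists described below, which include these genes, had 51 promoters of 39 genes in the table. Of these 51, TCACNCCAC was found in 1, CCAAT in 28 and GGGCGG in 31. A match is a description of these letters only.

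Total gene counts ranged from 11718559 to 19024351 per library, and the 8 genes together had 616 to 3642 counts. The 10 acinar enzyme genes Prss2, Cpa1, Cpb1, Ctrb1, Cela1, Cela2a, Pnlip, Cel, Pnliprp1 and Ctrc had counts in every library, so the labelled tissue shows its defining markers. Their share of all gene counts was 11.8% for WT-2404, 42.6% for WT-1860, 53.2% for WT-2067, 52.8% to 56.8% for the Het and 46.4% to 58.3% for the KO libraries. The mean share was 18.02 percentage points higher in KO than in WT libraries (exact permutation test, two-sided, p = 0.114, smallest possible 0.0286). WT-2404 thus stood apart. KO/WT values below that it moved by over 1.5 times, other than those of cell type markers, are given with and without it. Levels are given in CPM, counts-per-million after library sizes were scaled with TMM factors. These ran from 0.596 for KO-2126 to 3.53 for WT-2404, and a larger factor lowers the CPM of a library. WT libraries averaged 29.8 ± 9.88 CPM of Insr, Het libraries 38.5 ± 8.92 and KO libraries 31.5 ± 5.95 (SD over 3, 3 and 4 mice). Insr had a KO/WT log2 fold change of 0.09 (SE 0.26, edgeR adjusted p = 0.864), which was -0.12 without WT-2404. Gene counts of a whole piece do not check which cells lost Insr, so the groups are those of the labels.

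Per length of transcript, Insig1 had the highest mean of the 8 genes over the 10 libraries and Idi1 the lowest. The means were 13.0 ± 4.69 CPM per kilobase for Insig1, 5.14 ± 1.15 for Fdps, 3.79 ± 0.926 for Hmgcs1 and 2.47 ± 0.519 for Sqle (SD, n = 10 libraries of all groups). Mvd and Dhcr7 stood at 1.98 ± 0.497 and 1.97 ± 0.417, Lss at 1.44 ± 0.316 and Idi1 at 0.235 ± 0.139 on the same scale. Insig1 exceeded Fdps in 9 of the 10 libraries, Fdps exceeded Hmgcs1 in 10, Hmgcs1 exceeded Sqle in 10 and Lss exceeded Idi1 in 10. The neighbours Mvd and Dhcr7 did not differ beyond their spread, since Mvd was above Dhcr7 in 5 libraries of 10. Sqle was above Mvd in 7 libraries and Dhcr7 above Lss in 8, with ranges that overlapped.

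KO and WT libraries were compared to see which genes of the route differ when both Insr alleles are floxed. Hmgcs1, which makes HMG-CoA at the entry of the route, stood at 63.2% of its WT level in KO libraries, and Fdps, which makes farnesyl diphosphate, at 70.2%. Mvd, Idi1, Sqle and Dhcr7 had fold changes below 0 on the log2 scale, and Lss and Insig1 above 0, all with 95% intervals that included 0. None of the 8 passed an adjusted p of 0.05 in edgeR, as none of the 13688 genes tested did (0%, smallest adjusted p = 0.116). In edgeR 3221 genes had an unadjusted p under 0.05, and DESeq2 called 1009 genes at an adjusted p under 0.05, 1 of them among the 8. Of the 8 genes, 2 had an unadjusted p under 0.05 with lower levels in KO libraries, where 13.9% of all tested genes did. They were Hmgcs1 and Fdps, and the p of Fdps was no longer under 0.05 when any of 6 single libraries was left out. Without WT-2404, 1 of the 8 and 5.29% of all tested genes were under it with lower levels. Ranges that did not overlap were seen in 1 of the 8 with KO lower, beside 9.17% of all tested genes, and in 0 with KO higher, beside 6.74%. The median log2 fold change of the 8 was -0.29, against 0.03 over all tested genes. All fold changes are relative to TMM scaling. By library size alone the median of all genes was -1.17, and Lss and Insig1 too were below 0.

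**Figure D1:**
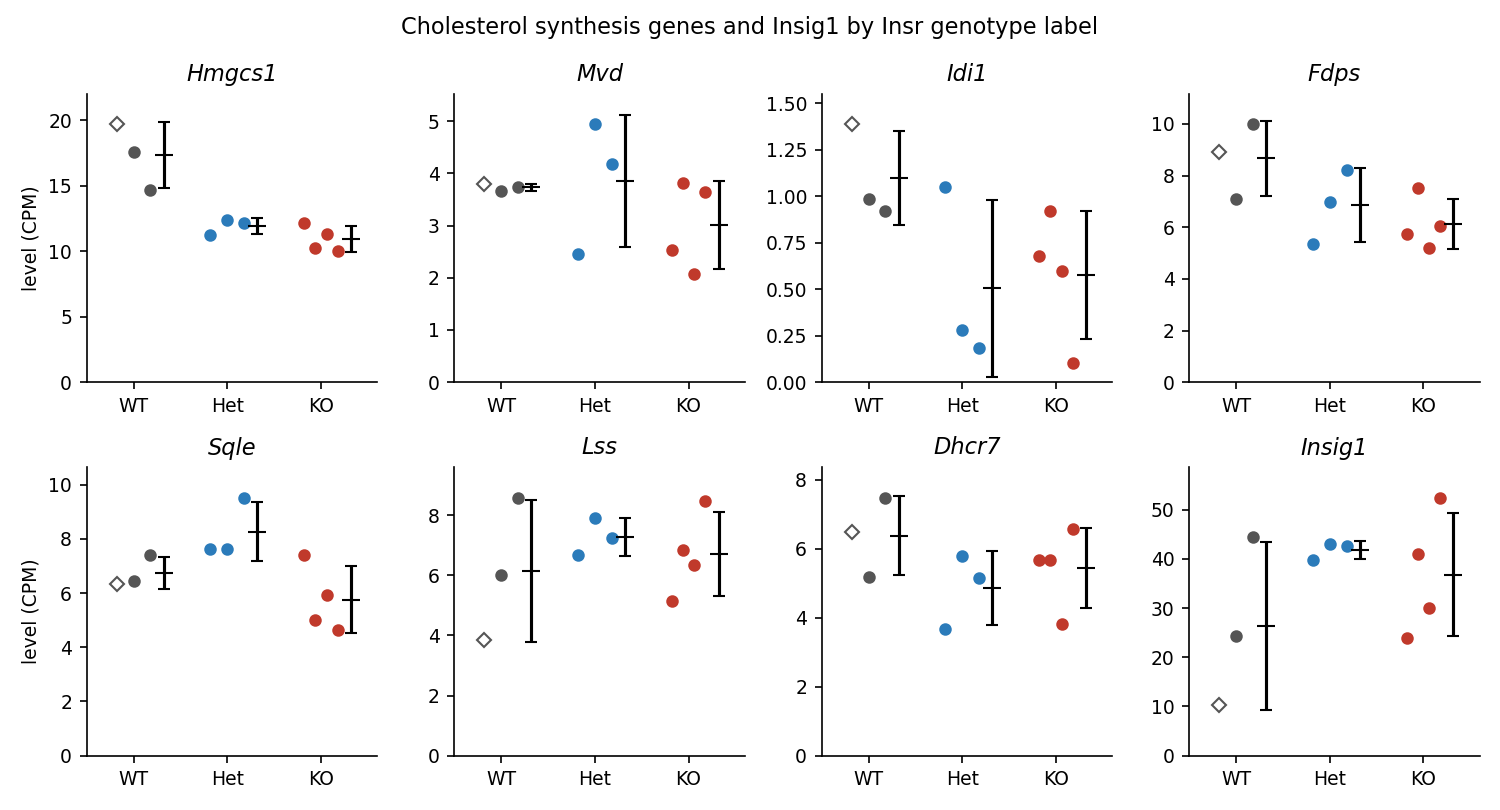
Level of each gene in CPM (y axis, from 0) in each library, by genotype label (x axis: WT n = 3, Het n = 3, KO n = 4), with the mean and SD beside the points. The open diamond is WT-2404. Hmgcs1 lies between 14.7 and 19.7 CPM in the WT libraries and between 9.998 and 12.4 CPM in all others, while the other genes overlap between KO and WT libraries.

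Hmgcs1 (chr13:119690379-119708260, plus strand) was at 19.7, 17.6 and 14.7 CPM in WT-2404, WT-1860 and WT-2067. It was at 11.2, 12.4 and 12.1 CPM in Het-2066, Het-1770 and Het-2042, and at 12.1, 10.3, 11.3 and 9.998 CPM in KO-2079, KO-2070, KO-2124 and KO-2126. Every Het and every KO library lay below the lowest WT library, and Het and KO libraries overlapped. WT libraries averaged 17.3 ± 2.499 CPM, Het libraries 11.9 ± 0.616 and KO libraries 10.9 ± 0.978 (SD over 3, 3 and 4 mice). Its KO/WT log2 fold change came to -0.66 (SE 0.16, 95% interval -1.02 to -0.31), with an unadjusted p of 0.00144 and an adjusted p of 0.116 in edgeR. DESeq2 placed it past the threshold at -0.69 (adjusted p = 0.0160), as did edgeR without WT-2067, at -0.76 (adjusted p = 0.0250). DESeq2 called 1009 of 13688 tested genes, and edgeR without WT-2067 called 1933 of 14172. By library size alone Hmgcs1 was at -1.92 (adjusted p = 0.0318), with the median of all genes at -1.17 and 2835 genes called, all of them lower. Without WT-2404 the value was -0.56, and over all alternatives the adjusted p ran from 0.0160 to 0.942.

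Markers of other cell types are given here too, since several lists, like Hmgcs1, had their highest mean in the WT libraries. Macrophage, lymphoid and cell cycle sums overlapped between WT and KO libraries, and the relation of the lists to Hmgcs1 was not tested. All 8 of 8 macrophage, 8 of 8 lymphoid and 8 of 8 cell cycle markers had KO against WT fold changes below 0 (log2). So did 7 of 8 fibroblast and 6 of 8 ductal markers, beside 48.2% of all tested genes. The other way, 7 of 8 islet, 7 of 8 adipocyte and 10 of 10 acinar markers were above 0. The summed macrophage level was 417 to 1698 CPM in WT, 225 to 340 in Het and 131 to 479 in KO libraries. The summed fibroblast level was 1270 to 4464 CPM in WT, 507 to 989 in Het and 444 to 1137 in KO libraries, and the summed ductal level 770 to 1253, 367 to 637 and 376 to 627 CPM. Cell cycle markers summed to 35.8 to 133 CPM in WT, 19.7 to 21.0 in Het and 7.37 to 62.2 in KO libraries. Lymphoid markers summed to 41.4 to 74.7 CPM in WT, 18.6 to 22.2 in Het and 7.17 to 45.9 in KO libraries. At most 3 cell cycle and 2 lymphoid markers were at 0 in a KO library, and 0 markers of the other lists were at 0 in any library. Islet markers summed to 473 to 5685 CPM in WT, 4956 to 9862 in Het and 3607 to 8478 in KO libraries, and adipocyte markers to 38.7 to 51.9, 74.4 to 94.7 and 51.4 to 95.5 CPM. WT-2404 had the highest WT sum of macrophage, fibroblast, ductal and cell cycle markers and the lowest of islet markers. WT-1860 and WT-2067 had 655 and 417 CPM of macrophage and 1890 and 1270 CPM of fibroblast markers. They had 857 and 770 CPM of ductal, 51.4 and 35.8 CPM of cell cycle and 5685 and 3056 CPM of islet markers. For lymphoid and adipocyte markers WT-2404 lay between them. Marker fold changes without WT-2404 are not given. With the acinar share of each library as a covariate, the Hmgcs1 value was -0.49 for KO/WT (edgeR unadjusted p = 0.0221, adjusted p = 0.942) and -0.36 for Het/WT (unadjusted p = 0.101). WT-2404 and WT-1860 had the lowest acinar shares (11.8% and 42.6%), so share and genotype label cannot be fully separated in this fit. The part of the other markers in these values was not tested.

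Mvd, Idi1 and Fdps carry mevalonate on to farnesyl diphosphate. Fdps (chr3:89093588-89101959, minus strand) was at 8.90, 7.11 and 9.98 CPM in WT-2404, WT-1860 and WT-2067, at 5.35, 6.99 and 8.22 CPM in Het-2066, Het-1770 and Het-2042, and at 5.75, 7.51, 5.21 and 6.06 CPM in KO-2079, KO-2070, KO-2124 and KO-2126. KO-2070 was above WT-1860, so the KO and WT ranges overlapped. Its KO/WT log2 fold change came to -0.51 (SE 0.22, 95% interval -0.99 to -0.03, edgeR adjusted p = 0.189), and -0.50 without WT-2404. Mvd (chr8:122433601-122443422, minus strand), the decarboxylase that yields isopentenyl diphosphate, had 3.66 to 3.79 CPM in the WT libraries, a narrow range. It was at 2.46, 4.94 and 4.17 CPM in the Het libraries and at 2.53, 3.82, 2.07 and 3.64 CPM in the KO libraries, in the order used above. The KO and Het values of Mvd lay on both sides of the WT values, and its KO/WT log2 fold change came to -0.33 (SE 0.31, 95% interval -1.01 to 0.34). Idi1 (chr13:8885501-8892451, plus strand), the isomerase of isopentenyl diphosphate, was the least counted, with 1 to 83 counts per library. It stood at 0.919 to 1.39 CPM in WT, 0.184 to 1.05 in Het and 0.101 to 0.922 CPM in KO libraries. Its KO/WT log2 fold change of -0.95 had an SE of 0.66 and a 95% interval of -2.38 to 0.49, so at this depth a difference of either sign was not detectable.

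Sqle, Lss and Dhcr7 act after squalene. Sqle (chr15:59315077-59331192, plus strand), the epoxidase that acts on squalene, was at 6.35, 6.45 and 7.41 CPM in WT-2404, WT-1860 and WT-2067. It was at 7.63, 7.64 and 9.51 CPM in Het-2066, Het-1770 and Het-2042, and at 7.42, 5.004, 5.94 and 4.65 CPM in KO-2079, KO-2070, KO-2124 and KO-2126. The Het libraries thus lay above every WT and every KO library. Dhcr7 (chr7:143823145-143848410, plus strand), the reductase of the last step, ranged from 5.19 to 7.47 CPM in WT, 3.68 to 5.78 in Het and 3.82 to 6.56 CPM in KO libraries, which overlapped. Its log2 fold changes against WT were -0.24 (SE 0.25) in KO and -0.39 (SE 0.27) in Het libraries, with 95% intervals of -0.78 to 0.30 and -0.97 to 0.20.

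Lss and Insig1 had their lowest values in the acinar-poor library WT-2404. Lss (chr10:76531588-76557138, plus strand), which closes the ring to lanosterol, was at 3.86, 6.01 and 8.57 CPM in WT-2404, WT-1860 and WT-2067, at 6.66, 7.92 and 7.24 CPM in the Het libraries and at 5.13, 6.85, 6.36 and 8.48 CPM in the KO libraries, in the same order. Insig1 (chr5:28071363-28078662, plus strand) was at 10.4, 24.3 and 44.4 CPM in the WT libraries, at 39.8, 43.0 and 42.6 CPM in the Het libraries and at 23.9, 41.1, 29.95 and 52.4 CPM in the KO libraries. Its WT values span most of the range of all 10 libraries, and the groups overlapped for both genes. KO/WT log2 fold changes were 0.13 (SE 0.27) for Lss and 0.49 (SE 0.41) for Insig1. These values depended on single WT libraries, since without WT-2404 they were -0.14 for Lss and 0.08 for Insig1, and without WT-2067 they were 0.46 and 1.099. With the acinar share as a covariate, under the limit given above, they were -0.29 and -0.21. All 8 genes then had KO against WT values below 0, in place of 6, beside 6655 of 13688 tested genes. Their median was -0.41, beside 0.01 over all genes. In that fit 1 of the 8 had an unadjusted p under 0.05 in edgeR with a lower level, beside 2.94% of all tested genes.

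**Figure D2:**
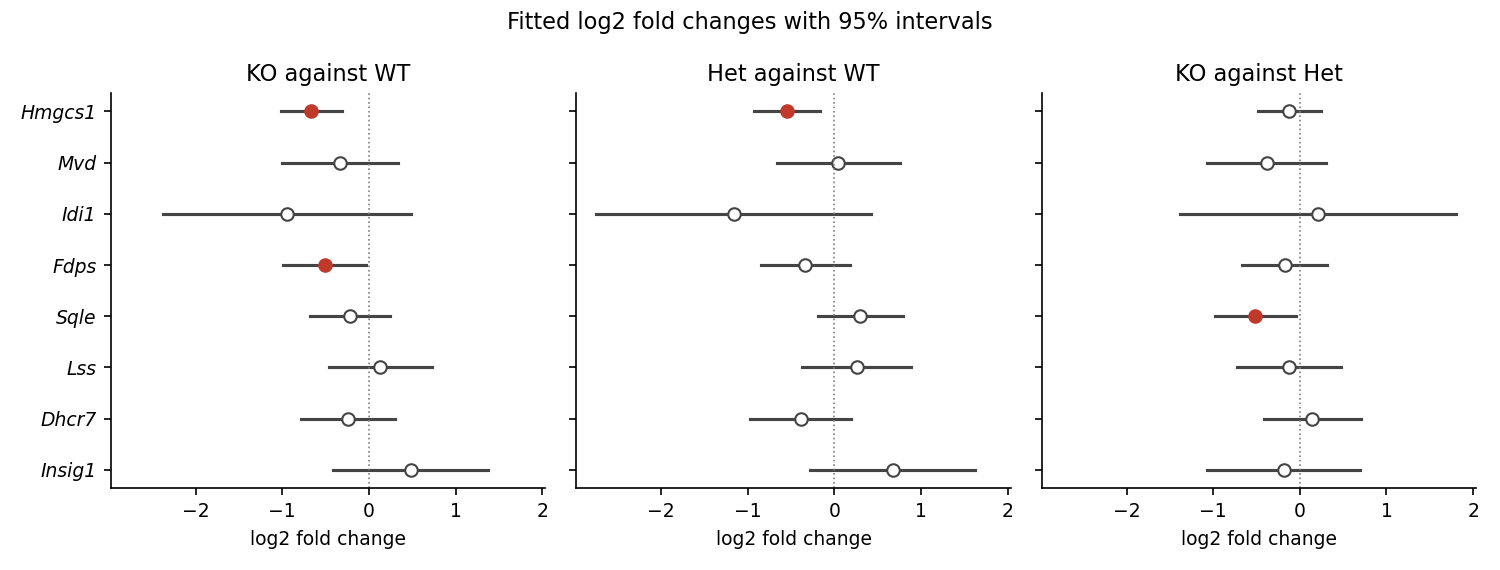
Fitted log2 fold change (x axis) of each gene (y axis) in the 3 comparisons, with 95% intervals as lines. Filled points have an unadjusted p under 0.05 in edgeR, and none passes an adjusted p of 0.05. Hmgcs1 is at -0.66 (KO against WT) and -0.54 (Het against WT), and Sqle at -0.51 in KO against Het.

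Het and WT libraries were compared for the effect of 1 floxed allele. Here too Hmgcs1 had the lower level, at 68.7% of WT (log2 fold change -0.54, SE 0.18, 95% interval -0.92 to -0.16, edgeR adjusted p = 0.183). It was -0.42 without WT-2404. The other genes lay between -1.16 for Idi1 (SE 0.73, -2.26 without Het-2066 and -0.72 without Het-2042) and 0.67 for Insig1 (SE 0.43, 0.29 without WT-2404 and 1.29 without WT-2067). Sqle was at 0.30 (SE 0.23) and Fdps at -0.33 (SE 0.24), and Mvd at 0.05 (SE 0.33), a value whose sign turned with single Het libraries. In edgeR 0 of 13688 genes passed (0%, smallest adjusted p = 0.183), 2714 had an unadjusted p under 0.05 and DESeq2 called 400, 0 of them among the 8. Of the 8 genes, 4 were below 0, beside 49.7% of all genes, with a median of -0.14. That median turned to 0.054 without Het-2066 and was -0.25 without Het-1770. Of the 8, 1 had an unadjusted p under 0.05 with a lower level, where 11.6% of all tested genes did, and 0 had one with a higher level, where 8.26% did. The first count was 0 without WT-2404, where 3.61% of all tested genes had one. Ranges that did not overlap were seen in 1 gene with Het lower, Hmgcs1, beside 13.5% of all tested genes, and in 1 with Het higher, Sqle, beside 11.3%. The comparisons of KO and of Het with WT share their WT libraries, so the values of Hmgcs1 in them are not independent of each other.

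KO and Het libraries were compared for what the other floxed allele adds, with WT libraries entering only through the scaling, the filter and the shared estimate of spread. Sqle was at 8.26 ± 1.08 CPM in the 3 Het and 5.75 ± 1.24 CPM in the 4 KO libraries (SD), 70.1% of the Het level. The log2 fold change stood at -0.51 (SE 0.21, 95% interval -0.98 to -0.05), with an unadjusted p of 0.0329 and an adjusted p of 1.0 in edgeR, and it lay between -0.66 and -0.32 under all alternatives. Hmgcs1 was at -0.12 (SE 0.17, 95% interval -0.48 to 0.24). The remaining members ran from -0.38 for Mvd (SE 0.32) to 0.21 for Idi1 (SE 0.73). Of the 8 genes, 6 were below 0, beside 48.6% of all tested genes, with a median of -0.15. Lower levels in KO with an unadjusted p under 0.05 were seen in 1 of the 8 and in 0.351% of all tested genes, and separate ranges with KO lower in 1 and in 1.16%. Both counts are Sqle, and the first was 0 without Het-2042, KO-2070 or KO-2126, by library size alone or outside the acinar list, and in the fit of only these groups. Higher levels in KO were seen by these rules in 0 of the 8, beside 0.402% and 1.3% of all tested genes. In edgeR 0 of 13688 genes passed (0%, smallest adjusted p = 1.0), 103 had an unadjusted p under 0.05, and DESeq2 called 0.

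Of the 28 pairs of the 8 genes, 17 had a positive Pearson r of log2 CPM, with a median of 0.096 and a range from -0.76 (Hmgcs1 and Insig1) to 0.96 (Lss and Insig1). The negative extreme was -0.11 without WT-2404 and WT-1860, the libraries farthest from the median of Hmgcs1. These pairs and the relation of each gene to the acinar share made 36 relations, tested by permutation (two-sided, 100000 permutations) with Benjamini-Hochberg adjustment over the 36. All use the same 10 libraries, their scaling and their genotype groups. Lss and Insig1 had r = 0.96 and Spearman rho = 0.99, each with a permutation p of 1e-05, the smallest that these permutations can give, and an adjusted p of 0.00036. Without WT-2404 and KO-2079, the libraries farthest from the median of Lss, r was 0.86 over 8 libraries. The next closest pairs were Fdps with Dhcr7 (r = 0.72, rho = 0.55) and Fdps with Mvd (r = 0.71, rho = 0.71), with permutation p of 0.0178 and 0.0226 for r, 0.105 and 0.0269 for rho, and adjusted p of 0.107 and 0.116 for r. Neither passed. Without WT-2067 and KO-2124, the libraries farthest from the median of Fdps, r was 0.47 and 0.71 over 8 libraries.

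**Figure D3:**
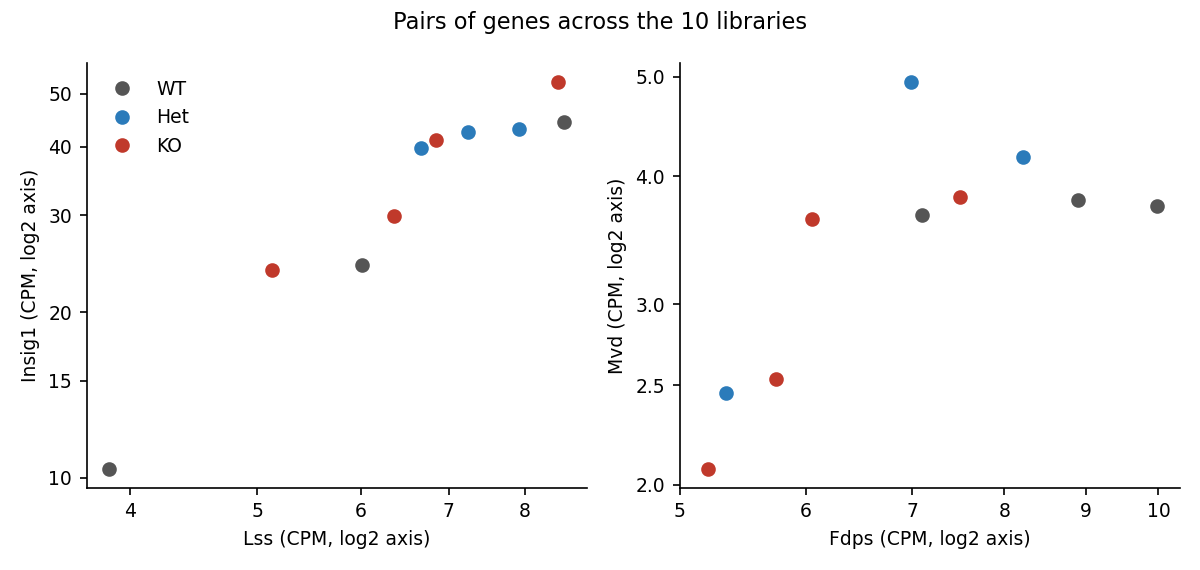
CPM on log2 axes of Insig1 against Lss (left) and of Mvd against Fdps (right), 1 point per library, coloured by genotype label. Insig1 and Lss lie along 1 line from WT-2404 at the lower left (r = 0.96), and Mvd and Fdps are more scattered (r = 0.71).

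Insig1 also followed the acinar share of the libraries, with r = 0.93 and rho = 0.75 (permutation p = 0.00196 and 0.0173, adjusted p = 0.0353 and 0.218). Hmgcs1 went the other way, with r = -0.81 and rho = -0.73 (permutation p = 0.00322 and 0.0199, adjusted p = 0.0386 and 0.218). Lss had r = 0.83 and rho = 0.70 (permutation p = 0.00954 and 0.0303, adjusted p = 0.0859 and 0.218), which did not pass. Without WT-2404 and WT-1860, the libraries farthest from the median share, r was 0.61 for Insig1, -0.32 for Hmgcs1 and 0.43 for Lss over 8 libraries, so the relations rest in good part on those WT libraries. None of these passed by rho, and the other 5 genes did not pass by r or rho. For them r ran from -0.51 (Idi1) to 0.016 (Sqle). Without WT-2404 and WT-1860 their r was 0.68 for Mvd, 0.54 for Dhcr7, 0.27 for Fdps, -0.26 for Idi1 and -0.31 for Sqle. The values over 8 libraries were not tested.

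**Figure D4:**
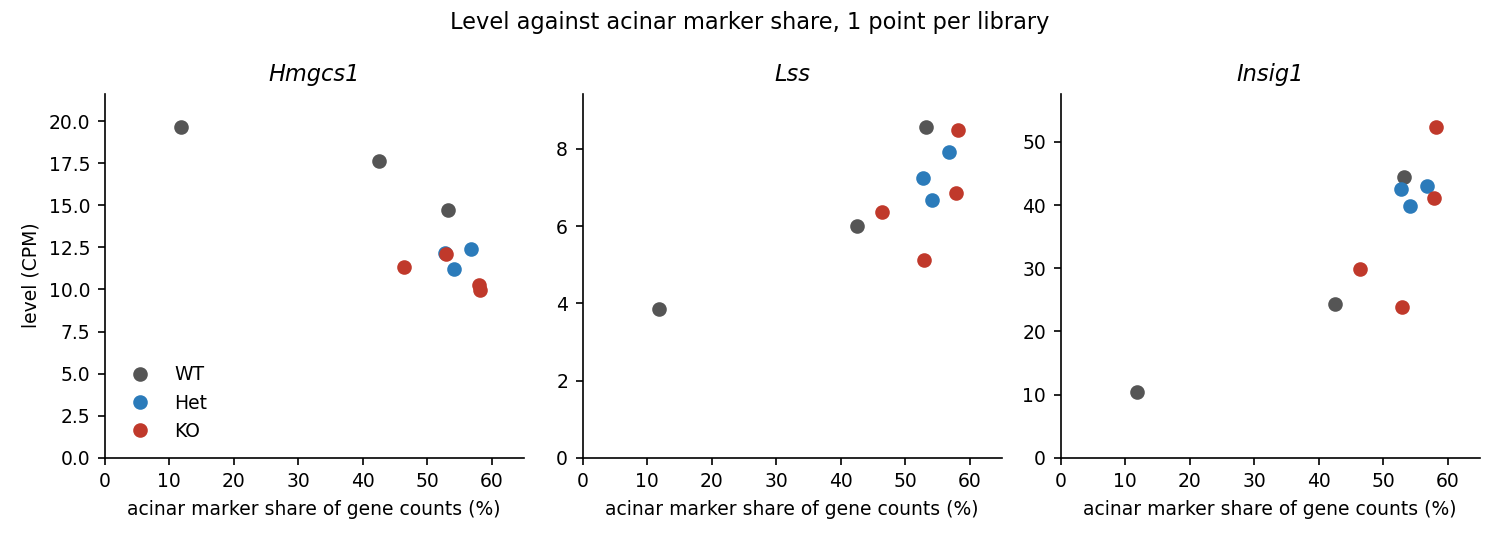
CPM (y axis, from 0) of Hmgcs1, Lss and Insig1 against the percentage of gene counts in the 10 acinar markers (x axis), 1 point per library, coloured by genotype label. WT-2404 stands alone at 11.8%, with the highest Hmgcs1 and the lowest Lss and Insig1.

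The mean profile of the 8 genes, each centred and scaled over the 10 libraries, was highest in WT-2067 and lowest in KO-2124. Each member is part of that mean, so its r is in part built in. It was highest for Fdps (r = 0.89) and lowest for Idi1 (r = 0.029), and without WT-2067 and KO-2124 highest for Mvd (r = 0.89). Among the 13680 tested genes outside the 8, those most like it over the 10 libraries were Src (r = 0.84, rho = 0.87), Entpd6 (r = 0.84, rho = 0.75), Srek1ip1 (r = 0.83, rho = 0.83), Pkp3 (r = 0.83, rho = 0.87) and Rnf19b (r = 0.82, rho = 0.79). Without WT-2067 and KO-2124, the libraries farthest from the median of the profile, their r was 0.57 to 0.80. They were picked as the closest of all genes, so these values are a description. The sterol factor gene Srebf1 ranked 30 among those genes (r = 0.73, rho = 0.53), with r = 0.13 without the same 2 libraries.

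The rest of the pathway was read through 54 genes in 6 lists, which include the 8. In edgeR with TMM scaling and all libraries 0 of the 54 passed the adjusted threshold in any of the 3 comparisons. In KO against WT 4 passed in DESeq2, all lower, beside 1009 of 13688 tested genes (715 lower). Without WT-2067, 9 passed in edgeR, all lower, beside 1933 of 14172 tested genes (1051 lower). By library size alone 20 passed, beside 2835 of 13688 tested genes, where the median of all genes was -1.17. Of the 21 synthesis enzymes, 17 had KO against WT values below 0, with a median log2 fold change of -0.51, beside 48.2% of all tested genes below 0 and their median of 0.03. Without WT-2404 the count was 16 of 21, with a median of -0.50, and with the acinar share as a covariate 17 of 21, with a median of -0.39. At an unadjusted p under 0.05 there were 8 enzymes with lower and 1 with higher levels in KO libraries, beside 13.9% and 9.6% of all genes. Without WT-2404 there were 5 and 0, beside 5.29% and 4.13% of all genes. By Het against WT, 16 of 21 were below 0, with a median of -0.33, and by KO against Het 15 of 21, with a median of -0.12. The 8 genes of the mevalonate and farnesyl steps were all below 0 in KO against WT (median -0.59), and 6 were without WT-2404 (median -0.53). Of the 13 of the squalene to cholesterol steps 9 were (median -0.24).

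**Figure D5:**
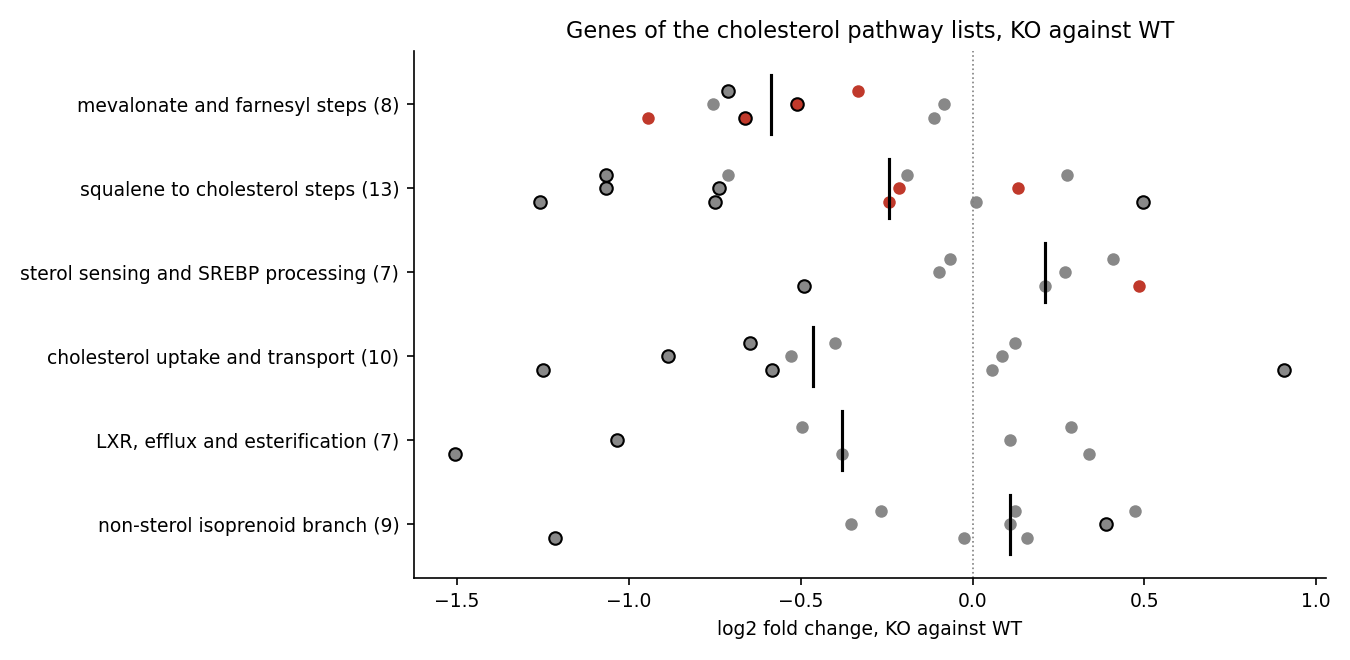
KO against WT log2 fold change (x axis) of the 54 pathway genes, by list (y axis, number of genes in parentheses). Red points are the 8 genes described here, grey points other genes, black rims an unadjusted p under 0.05 in edgeR and black bars list medians, which run from -0.59 to 0.21.

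Among the enzymes outside the 8, Cyp51, the lanosterol demethylase, stood at -1.07 (SE 0.38) and Msmo1, which oxidises the next methyl groups, at -0.74 (SE 0.26). Fdft1, the squalene synthase, stood at 0.28 (SE 0.24) and Sc5d, a desaturase of the later steps, at 0.50 (SE 0.21). Without WT-2404 Fdft1 was at 0.12 and Sc5d at 0.32, and with the acinar share as a covariate Fdft1 was at -0.0035. None of these passed in edgeR with TMM scaling and all libraries.

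Of the 7 genes of sterol sensing, which include Insig1, 3 were below 0 in KO against WT (median 0.21). Without WT-2404 the median was 0.079, and with the acinar share as a covariate it turned to -0.071, with 5 below 0. Srebf2, which encodes SREBP-2, averaged 28.7 ± 4.38 CPM over the WT, 20.9 ± 2.66 over the Het and 20.5 ± 0.169 over the KO libraries (SD over 3, 3 and 4 mice). Every Het and KO library lay below the lowest WT library, as for Hmgcs1. Of all tested genes, 9.17% had every KO library below WT and 13.5% every Het library. Against WT it stood at -0.49 in KO (log2 fold change, SE 0.16, edgeR adjusted p = 0.127) and at -0.46 in Het libraries (SE 0.18, edgeR adjusted p = 0.203). Without WT-2067 the KO value was -0.60 and passed in edgeR (adjusted p = 0.0423), where 1933 of 14172 tested genes passed. Without WT-2404 it was -0.46 (edgeR adjusted p = 0.510), and DESeq2 called 0 of the 7 genes. Srebf1 was at -0.10 (SE 0.18), with a 95% interval of -0.49 to 0.29, was -0.16 without WT-2404 and turned to 0.067 without WT-2067. Scap was at 0.27 (SE 0.23), or 0.11 without WT-2404, and Insig2, a relative of Insig1, at 0.41 (SE 0.19) in KO and at 0.60 (SE 0.20) in Het against WT.

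Of the 10 uptake and transport genes, 6 were below 0 in KO against WT (median -0.46). Without WT-2404 the median was -0.18, and with the acinar share as a covariate -0.12, again with 6 below 0. Lipa, the lysosomal acid lipase that frees cholesterol from its esters, was at -1.25 (SE 0.38, edgeR adjusted p = 0.121). DESeq2 called Lipa at -1.28 (adjusted p = 0.0333), and so did edgeR without WT-2067, at -1.50 (adjusted p = 0.0312). These fits called 1009 of 13688 and 1933 of 14172 tested genes. Without WT-2404 Lipa was at -0.74 in edgeR (adjusted p = 0.534). Vldlr, a lipoprotein receptor, was at 0.91 (SE 0.33), and 0.54 without WT-2404. Every KO library lay above every WT library, as for 6.74% of all tested genes. Stard4, a cholesterol carrier of the cytosol, was at -0.53 (SE 0.45), and at 0.030 without WT-2404.

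Of the 7 genes of LXR signalling, efflux and esterification, 4 were below 0 in KO against WT (median -0.38). The median turned to 0.019 without WT-2404 and to 0.041 with the acinar share as a covariate, with 3 below 0 in each. The exporters Abca1 and Abcg1 were at -0.50 (SE 0.24) and -0.38 (SE 0.24), and without WT-2404 at -0.16 and 0.019. Soat2, which makes cholesterol esters, was at -1.51 (SE 0.44, edgeR adjusted p = 0.119), on as few as 4 counts in a library. DESeq2 (adjusted p = 0.0370) and edgeR without WT-2067 (adjusted p = 0.0451) called it, where they called 1009 of 13688 and 1933 of 14172 tested genes. Without WT-2404 Soat2 was at -1.11 (edgeR adjusted p = 0.535). Nr1h2, which encodes an LXR receptor, was at 0.34 (SE 0.19), and 0.21 without WT-2404. Of the 9 genes of the non-sterol isoprenoid branch, 4 were below 0 (median 0.11, or 0.073 without WT-2404 and 0.040 with the covariate), with Pdss1 at -1.22 (SE 0.52) and Coq2 at 0.39 (SE 0.18), both of ubiquinone synthesis. None of these genes passed in edgeR with TMM scaling and all libraries.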

How the data were processed

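Counts per gene symbol were deposited as a table of whole numbers, 1 column per mouse, with no normalization by the authors that the values show. Per the submitters' processing notes, the build mm10 and the tools STAR, Cufflinks and DRAGEN were used, in roles not given there. The counting tool, the annotation, the use of strand and the treatment of reads shared by near-identical copies are not given in the sources used here, so overlapping genes and genes with such copies are uncertain. Per the labels' protocols, RNA came from frozen, pulverised tail pieces. Each WT, Het and KO library is a separate mouse, named by its label and number. A further WT mouse that the protocol counts was not analysed here. All mice shared 1 more element of genotype, which is not reported here. Single results of some pathway genes that the lists count are not reported here either.

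All 10 columns matched a sample by genotype and number. The 2 rows that name no gene, reads outside genes (2.59% to 8.71% of counts) and ambiguous reads (0.101% to 0.584%), stayed out of library sizes and tests. Of 24421 genes, 13688 passed edgeR's filterByExpr (minimum count 10). TMM factors and edgeR 4.0.16's quasi-likelihood test (glmQLFit robust, two-sided) were used in 1 fit over the 10 libraries without covariates, with Benjamini-Hochberg adjustment over all tested genes and a threshold of 0.05. SE and 95% intervals came from the quasi-F statistic. The labels name no batch. Libraries of a group differed beyond sampling noise (chi-square per degree of freedom 26.5 or more). The upper limit for a gene with 0 counts (3 counts) is 0.0501 to 0.395 CPM, for counting error only. Log2 CPM used a prior count of 2, and correlations 100000 permutations. Lengths are the longest protein-coding transcripts of GENCODE M21 (GRCm38), whose coordinates are printed. Scripts were tested on simulated data. DESeq2 1.42.0, other scalings and filters, a fit of only the groups compared, the acinar share as a covariate and leaving out each mouse were tried. Recounting the lists without WT-2404 or WT-2067, by library size alone and with the covariate was chosen after seeing the data.

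The members and lists were chosen with earlier results of these data known. Named outside the 8 were 10 pathway genes whatever their values, the gene of smallest unadjusted p in each direction of each pathway list in KO against WT (apart from genes not reported here), the 5 genes most like the mean profile, and Insr as the targeted gene.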

Additional observations from a re-analysis of the deposited data

Results flagged for a closer look

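Dixon's gap test was run on 70 measures in the KO group, the 1 group of over 3 libraries. It singled out 1 KO library in 3 measures, and about 3.5 would be singled out by chance. Mylip, a target gene of the LXR receptors, had 8.69 CPM in KO-2126, below the 14.1 to 14.3 CPM of the rest of the group. Insr had 22.7 CPM in KO-2079, below 33.3 to 35.4 CPM in the rest. KO-2124 had 8.71% of its reads outside genes, above 2.59% to 3.48% in the rest. None of the 8 cholesterol genes was singled out.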

How the results depend on the processing

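The 0 genes past the threshold became 2835 (KO against WT) and 3125 (Het against WT) by library size alone, none of them higher, where the median of all genes was -1.17 and -1.36. DESeq2 called 1009 (294 higher) and 400 (153 higher). Without single libraries the counts ran from 0 to 1933 (KO against WT) and from 0 to 1158 (Het against WT), both highest without WT-2067, and stayed at 0 in KO against Het. The cause of these differences was not tested. Relative log expression factors, a filter of at least 1 count, fits of only the groups compared, the acinar covariate and library sizes outside the acinar list gave 0. No paired analysis was possible because no replicate number is shared between groups. For the 8 genes, 17 pathway genes and Insr, 17 alternatives gave 1326 log2 fold changes, of which 1196 kept direction and side of the threshold, 26 newly passed it and 104 turned sign. By library size alone the values that turned sign were Lss -0.85, Insig1 -0.35, Fdft1 -0.81, Scap -0.85, Insig2 -0.79, Sc5d -0.61, Nr1h2 -0.73, Coq2 -0.74 and Insr -0.89 in KO against WT, Sqle -1.01, Lss -0.86, Insig1 -0.23, Mvd -1.35, Fdft1 -0.84, Scap -0.89, Insig2 -0.70, Sc5d -0.69, Vldlr -0.27, Nr1h2 -1.16, Coq2 -0.81 and Insr -0.80 in Het against WT, and Hmgcs1 0.070, Lss 0.014, Fdft1 0.034, Cyp51 0.079, Srebf1 0.037, Srebf2 0.14, Scap 0.039, Stard4 0.082, Sc5d 0.083, Lipa 0.25 and Coq2 0.065 in KO against Het. With library sizes summed outside the acinar list, where the median of all genes was -0.62 in KO against WT, -0.75 in Het against WT and 0.12 in KO against Het, they were Lss -0.40, Fdft1 -0.30, Scap -0.34, Insig2 -0.25, Sc5d -0.10, Nr1h2 -0.24, Coq2 -0.21 and Insr -0.44 in KO against WT, Sqle -0.43, Lss -0.37, Mvd -0.74, Fdft1 -0.30, Scap -0.35, Insig2 -0.12, Sc5d -0.15, Nr1h2 -0.60, Coq2 -0.23 and Insr -0.28 in Het against WT, and Hmgcs1 0.011, Srebf2 0.083, Scap 0.0078, Stard4 0.0072, Sc5d 0.048, Lipa 0.14 and Coq2 0.011 in KO against Het. With the acinar share as a covariate they were Lss -0.29, Insig1 -0.21, Fdft1 -0.0035, Scap -0.044, Stard4 0.24, Abcg1 0.052 and Insr -0.22 for KO against WT and Lss -0.18, Insig1 -0.029, Mvd -0.066, Stard4 0.46 and Abcg1 0.049 for Het against WT. Leaving out single libraries turned the sign in KO against WT of these genes, over these ranges: Abcg1 from -0.56 to 0.019, Insr from -0.12 to 0.38, Lss from -0.14 to 0.46, Srebf1 from -0.20 to 0.067 and Stard4 from -0.87 to 0.030. Leaving out single libraries turned the sign in Het against WT of these genes, over these ranges: Abcg1 from -0.58 to 0.016, Mvd from -0.16 to 0.29, Srebf1 from -0.11 to 0.15 and Stard4 from -0.83 to 0.21. Leaving out single libraries turned the sign in KO against Het of these genes, over these ranges: Abca1 from -0.048 to 0.19, Abcg1 from -0.085 to 0.17, Cyp51 from -0.51 to 0.017, Dhcr7 from -0.015 to 0.28, Idi1 from -0.22 to 1.32, Lipa from -0.38 to 0.096, Sc5d from -0.14 to 0.080, Scap from -0.16 to 0.052, Srebf2 from -0.13 to 0.031, Stard4 from -0.52 to 0.30 and Vldlr from -0.036 to 0.26. The signs of Hmgcs1, Fdps, Idi1 and Dhcr7 against WT held under all 17 alternatives, and those of Sqle and Mvd held in KO against WT. All these signs were below 0. By library size alone 13030 (KO against WT) and 13120 (Het against WT) of 13688 tested genes were below 0, so that alternative says little about single genes. Some alternatives left out a library of the group not compared. Depth limits Idi1, Soat2 and Pdss1, with 1, 4 and 3 counts in their lowest library.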
